A study of Mus musculus with 7 samples.

Results

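The DNA damage response was followed through 31 genes in sorted mouse intestinal crypt cells from 3 diets. They are Trp53, which encodes p53, with 15 p53 target genes, 4 signalling kinase genes and 11 DNA repair genes. The genes were listed by symbol and looked up in the deposited gene names, and all 31 were found among the 37310 genes of the count table. All 31 also passed the filter on low counts, which kept 14626 genes. All mice carried BmicreERT2, an inducible Cre driven by the Polycomb gene Bmi1, and Rosa26RFP, a red reporter that Cre switches on. A reporter of this kind also stays on in the descendants of a marked cell. Diets were given from weaning to 3 months of age, and 2 libraries came from NWD2, 3 from NWD1 and 2 from AIN76A. From what is known of these diets, NWD2 adds calcium and vitamin D3 back to NWD1, a Western-style diet rich in fat and poor in calcium, vitamin D3 and nutrients of the methyl cycle, and AIN76A is a purified control diet. Cells were sorted as strongly red, Epcam-positive and CD45-negative, and their RNA was sequenced in bulk. All libraries were labelled male except NWD1 replicate 2, and whether a library stands for its own mouse is not stated. All p-values therefore measure the spread between these samples, which may be technical.

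Total counts ranged from 14034315 in NWD1 replicate 3 to 77959407 in NWD2 replicate 2, and a member had at least 3 counts in each library. Epcam, the surface protein of the sort, lay between 225 and 1338 CPM (counts scaled to a common library size by the trimmed mean of M values), and Ptprc, which encodes CD45, between 1.17 and 5.75 CPM. Ptprc and Rac2 were lower in both NWD2 libraries than in AIN76A. Cd3e, Cd3g, Cd8a, Laptm5, Coro1a, Cd52, Cd7 and Gzma, the rest of 10 leukocyte markers, were higher there. Their sum over all 10 lay between 13.3 and 40.6 CPM. Their mean log2 CPM, less the mean over the 7 libraries, was 0.14 and 0.72 in NWD2. It was -0.42, -0.21 and 1.66 in NWD1 and -0.85 and -1.04 in AIN76A, and its part in the levels below was not tested. A pair of libraries need care. NWD2 replicate 2 lay at 84.2 on the first principal component and the others between -48.2 and 1.44, and it had the lowest Epcam. Its scaling factor was 0.7975, against 0.951 to 1.0926 in the other libraries, which raises its CPM beside a scaling by total counts alone. Other epithelial markers were split there, with Krt18 lowest but Cdh1 and Vil1 highest of all libraries. The sum of 7 epithelial markers was 9978 CPM in NWD2 replicate 2, inside the range of 7843 to 11980 CPM over all libraries. NWD1 replicate 3 has counts under that name, but the TPM table heads a column as NWD2 replicate 3, a name that no labelled sample carries, and has none for NWD1 replicate 3, so the diet of that library is less certain. Markers of hormone-producing enteroendocrine cells summed to 425 and 596 CPM in NWD2, against 1601 to 1881 CPM over the NWD1 libraries, and 1691 and 2138 CPM in AIN76A. In bulk RNA, fewer cells of a type and less RNA per cell cannot be told apart.

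p53 is a transcription factor that is held at low protein levels by the ubiquitin ligase Mdm2. When DNA is damaged, the kinases Atm and Atr, acting in part through Chek2 and Chek1, modify p53 so that it escapes Mdm2 and switches on genes for cell cycle arrest, cell death and repair. As p53 is regulated mostly as a protein, the level of its messenger RNA says little about its activity, and its targets are the usual readout. In the intestine, crypt cells are known for a strong p53 response to radiation, and Bbc3 is a main effector of the cell death that follows.

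p53 binds pairs of a palindromic motif of 10 bases, the p53 motif, which reads alike on both strands. Promoter windows of RefSeq (GRCm38.p6, from 250 bases before to 50 after the start of a transcript) were at hand for 25 of the 31 genes, and they were searched for the motif and for pairs with a gap of at most 13 bases. Trp53inp1, Rrm2b, Pmaip1, Prkdc, Fancd2 and Xpc had none. Of the p53 targets with a window, 7 of 12 held the motif, namely Cdkn1a, Mdm2, Ccng1, Gadd45a, Bax, Aen and Sesn1. None of the 8 repair genes and none of the 4 kinase genes with a window held it, and Trp53 did. By gene, the share over all 27025 genes with a window was 9.55%. By window, 8 of 17 of the p53 targets had a match, beside 8.36% of all 32851 windows in the table. The Aen windows overlap and hold the same motif, so it counts in both. A pair was found in 1 gene, Cdkn1a, and in 0.0731% of all windows. A match is a description of the letters in these windows and not a measured site. The windows of Gadd45a and Ccng1 are shown because these were the members with the smallest p-values between diets, and that of Cdkn1a because it held the pair. Capitals mark the p53 motif, and each window is read 5′ to 3′ on the strand of the gene.
Gadd45a, chr6:67037358-67037657, minus strand: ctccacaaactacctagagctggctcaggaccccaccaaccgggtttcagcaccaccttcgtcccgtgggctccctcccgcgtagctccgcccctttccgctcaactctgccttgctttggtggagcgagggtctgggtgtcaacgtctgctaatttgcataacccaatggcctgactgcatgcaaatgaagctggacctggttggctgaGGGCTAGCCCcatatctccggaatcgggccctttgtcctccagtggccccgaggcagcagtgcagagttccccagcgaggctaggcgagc
Ccng1, chr11:40755237-40755536, minus strand: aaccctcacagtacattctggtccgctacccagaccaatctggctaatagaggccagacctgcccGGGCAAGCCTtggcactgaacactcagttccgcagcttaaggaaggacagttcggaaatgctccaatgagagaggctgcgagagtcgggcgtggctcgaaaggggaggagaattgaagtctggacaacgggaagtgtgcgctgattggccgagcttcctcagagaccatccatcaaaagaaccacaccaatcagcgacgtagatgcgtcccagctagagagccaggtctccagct
Cdkn1a, chr17:29090729-29091028, plus strand: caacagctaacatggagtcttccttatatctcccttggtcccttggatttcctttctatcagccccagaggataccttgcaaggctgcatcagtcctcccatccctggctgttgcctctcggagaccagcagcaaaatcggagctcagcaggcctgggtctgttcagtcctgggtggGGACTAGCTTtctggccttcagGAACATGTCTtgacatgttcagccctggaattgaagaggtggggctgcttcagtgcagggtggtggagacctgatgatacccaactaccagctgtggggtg
The Gadd45a motif starts 40 bases before the start of the transcript and the Ccng1 motif 185 bases before it. The Cdkn1a motifs start 73 and 51 bases before the start of one of its listed transcripts, with 12 bases between them. Only exact matches were searched for, so near matches are not marked. The 10 bases right after the second Cdkn1a motif depart from the p53 motif only at their first base. The marked pair is thus not shown to be the pair that p53 binds. The other Cdkn1a window held no exact match.

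Per gene length, p53 targets held most of the upper ranks of the 31 genes. The deposited TPM values (a level corrected for gene length and library size) cover 6 libraries, without NWD1 replicate 3. Cdkn1a had the highest median level, 256 TPM, followed by Sesn1 at 79.3, Btg2 at 57.6, Bax at 47.9, Ccng1 at 44.1 and Trp53 itself at 26.4 TPM. The highest repair genes, Xrcc6 at 16.1 and Parp1 at 12.6 TPM, ranked ninth and twelfth. At the lower end stood Eda2r at 0.312, Brca2 at 0.435, Trp53bp1 at 0.538 and Phlda3 at 0.569 TPM. Ranges over the 6 libraries overlapped for many neighbours in this order, for example 48.5 to 90.3 TPM for Btg2 and 31.8 to 60.1 TPM for Bax.

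**Figure D1:**
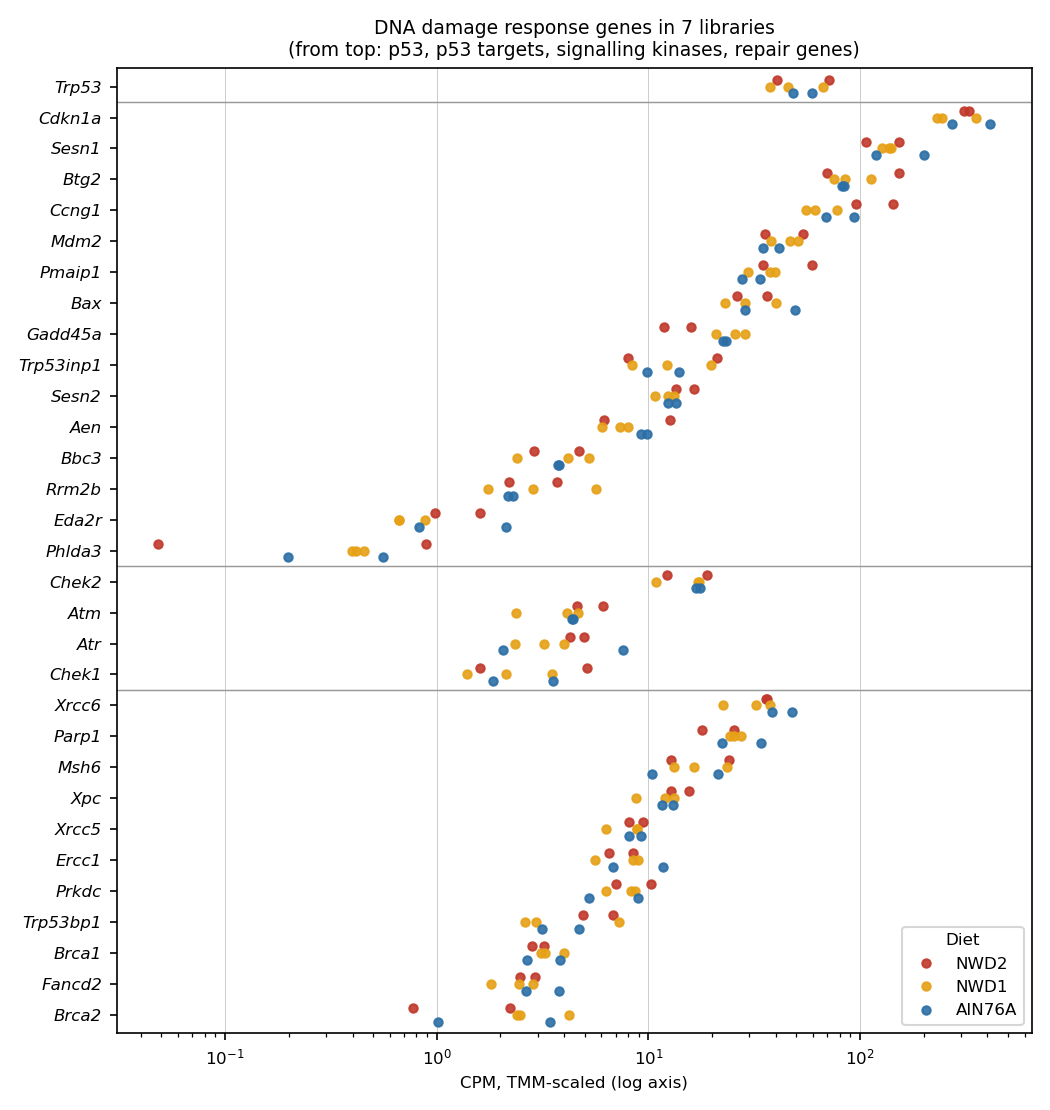
CPM of the 31 genes (log axis) in each library, one point per library, coloured by diet, with p53 on top and then p53 targets, signalling kinases and repair genes, each ordered by mean CPM. Points of the 3 diets lie among each other for most genes; in Gadd45a both NWD2 points, 15.9 and 11.8 CPM, lie left of all others.

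None of the 31 genes passed the test in any comparison of diets. With edgeR's quasi-likelihood test, adjusted by Benjamini-Hochberg over all 14626 genes, 0 members were called with NWD2 against AIN76A (lowest adjusted p = 0.996), 0 with NWD2 against NWD1 (lowest adjusted p = 0.532) and 0 with NWD1 against AIN76A (lowest adjusted p = 0.878). DESeq2 and limma voom called 0 members too, and edgeR called 0 without NWD2 replicate 2 and without NWD1 replicate 3. Over all genes edgeR called 0 in each comparison, a background of 0%, limma voom called 0, and DESeq2 called 52, 180 and 1 genes in the same order. At an unadjusted p under 0.05 there were 1, 2 and 0 members of 31, or 3.23%, 6.45% and 0%, beside 3.83%, 7.89% and 3.42% of all genes tested. The libraries of the diets did not overlap for 6, 6 and 2 members, or 19.4%, 19.4% and 6.45%, beside 26.4%, 25.3% and 20.1% of all genes. These shares of the members were at or below those of all genes.

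The precision allows limits on some of these differences. The 95% interval of the log2 fold change lay within 1 of 0, so within a doubling or halving, for 10 of 31 members with NWD2 against AIN76A, 14 with NWD2 against NWD1 and 15 with NWD1 against AIN76A. For the remaining members a change of that size was not excluded at this number of libraries. The median spread of a member between libraries of one diet was 0.39 on the log2 CPM scale, against 0.40 for the 12081 genes of the same range of mean levels.

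**Figure D2:**
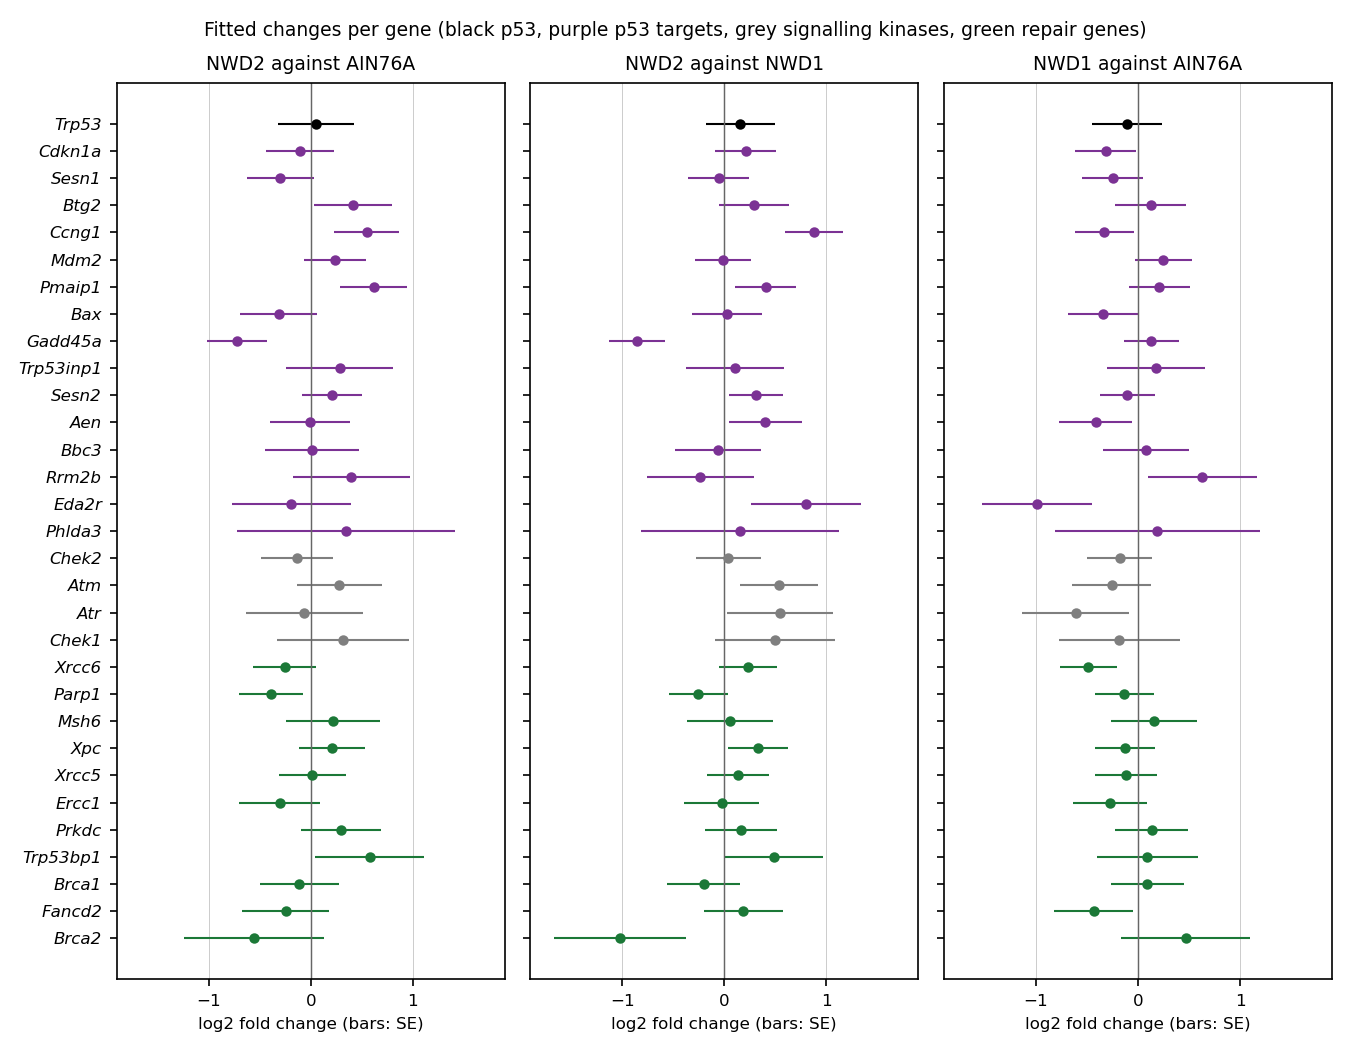
Fitted log2 fold change of each gene (point) with its SE (bar) in the 3 comparisons, in the same order of genes as in the plot of CPM, with p53 in black, p53 targets in purple, kinases in grey and repair genes in green. Gadd45a lies below 0 (-0.72, -0.86) and Ccng1 above 0 (0.55, 0.88) in both NWD2 panels. Pmaip1 (0.62) and Trp53bp1 (0.58) lie further out than Ccng1 with NWD2 against AIN76A, Brca2 (-1.02) lies further out than Gadd45a with NWD2 against NWD1, and none passed the adjusted test.

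Trp53 and its antagonist Mdm2 had overlapping levels in all diets. Trp53 had 71.5 and 40.3 CPM in the NWD2 libraries, 67.2, 45.5 and 37.5 CPM in those on NWD1 and 48.4 and 59.4 CPM in those on AIN76A. The highest and the second lowest of these values both came from NWD2. Its log2 fold change was 0.05 (SE 0.37) with NWD2 against AIN76A, 0.16 (SE 0.34) with NWD2 against NWD1 and -0.11 (SE 0.34) with NWD1 against AIN76A. A pseudogene of Trp53, Trp53-ps, is in the count table with 0 counts in all libraries. Mdm2, itself a p53 target and the ligase that removes p53, had 35.5 and 54.02 CPM in the NWD2 libraries, 37.99, 50.95 and 46.7 CPM in those on NWD1 and 34.8 and 41.3 CPM in those on AIN76A. The ranges of the 3 diets overlapped, and the intervals of the log2 fold change were -0.45 to 0.92 with NWD2 against AIN76A, -0.64 to 0.61 with NWD2 against NWD1 and -0.38 to 0.88 with NWD1 against AIN76A. The p53 antagonist gene Mdm4 and the kinase gene Hipk2 are given with the wider lists.

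Among targets of growth arrest, Gadd45a was lower and Ccng1 higher in both NWD2 libraries than in all other libraries, without passing the adjusted test. For Ccng1 this held in scaled CPM only. Gadd45a (ENSMUSG00000036390.6), which encodes a stress sensor that binds cell cycle and repair proteins, had 15.9 and 11.8 CPM in the NWD2 libraries, 28.6, 25.7 and 20.8 CPM in those on NWD1 and 22.4 and 23.3 CPM in those on AIN76A. The means were 13.8 ± 2.85 CPM (SD, n = 2) in NWD2, 25.02 ± 3.95 CPM (SD, n = 3) in NWD1 and 22.8 ± 0.5999 CPM (SD, n = 2) in AIN76A. The log2 fold change was -0.86 (SE 0.28, edgeR unadjusted p = 0.0124, adjusted p = 0.532) with NWD2 against NWD1, and -0.72 (SE 0.30, edgeR unadjusted p = 0.037, adjusted p = 0.996) with NWD2 against AIN76A. Both comparisons share the NWD2 libraries. Without NWD2 replicate 2 these values were -0.65 and -0.52, and without NWD1 replicate 3 they were -0.97 and -0.72. NWD1 and AIN76A overlapped (0.13, SE 0.27). The enteroendocrine and tuft cell marker sums, also lowest in both NWD2 libraries (tuft 45.3 and 55.6 CPM in NWD2, 89.0 to 215 CPM over the NWD1 libraries, and 174 and 113 CPM in AIN76A), moved with Gadd45a, and their part in its level was not tested. The NWD2 libraries also carry another i5 index than the AIN76A libraries, so diet and index cannot be told apart in that comparison. With the index as a term, which is estimated from NWD1 replicate 3 against the other NWD1 libraries, Gadd45a had -0.59 with NWD2 against NWD1 and -0.34 with NWD2 against AIN76A. Exons of Gadd45a overlap those of E230016M11Rik on the other strand, and the library preparation does not mark strand. That gene reached at most 2.11 CPM.

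Ccng1 (ENSMUSG00000020326.7), which encodes cyclin G1, a cyclin that acts with a phosphatase on Mdm2, had 95.97 and 142 CPM in the NWD2 libraries, 55.8, 61.4 and 77.8 CPM in those on NWD1 and 68.9 and 93.97 CPM in those on AIN76A. NWD2 replicate 2 was far above the rest, while NWD2 replicate 1 was only slightly above AIN76A replicate 2. By total counts alone, NWD2 replicate 1 and AIN76A replicate 2 were level, and NWD2 replicate 2 stood less far above the rest. The mean was 119 ± 32.8 CPM (SD, n = 2) in NWD2, 64.95 ± 11.4 CPM (SD, n = 3) in NWD1 and 81.4 ± 17.7 CPM (SD, n = 2) in AIN76A. Its log2 fold change was 0.88 (SE 0.29, edgeR unadjusted p = 0.0129, adjusted p = 0.532) with NWD2 against NWD1 and 0.55 (SE 0.32, adjusted p = 0.996) with NWD2 against AIN76A. Without NWD2 replicate 2 the values were 0.57 and 0.24, and without NWD1 replicate 3 they were 1.03 and 0.55. With the i5 index as a term they were 0.62 and 0.14. In NWD1 all libraries but replicate 3 lay below both AIN76A libraries (-0.33, SE 0.29, adjusted p = 0.882).

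Cdkn1a, the p21 inhibitor of cyclin-dependent kinases and the best known p53 target, had 309 and 328 CPM in the NWD2 libraries, 231, 352 and 244 CPM in those on NWD1 and 413 and 273 CPM in those on AIN76A. Both NWD2 values lay inside the range of the other libraries. Its intervals were -0.86 to 0.64 with NWD2 against AIN76A, -0.47 to 0.89 with NWD2 against NWD1 and -0.99 to 0.36 with NWD1 against AIN76A, so none reached a doubling or halving in either direction. Btg2, an antiproliferative gene that is also induced quickly when tissue is dissociated, had 69.8 and 152 CPM in the NWD2 libraries, 75.4, 112 and 84.5 CPM in those on NWD1 and 84.1 and 82.1 CPM in those on AIN76A. Its highest and lowest values were the 2 NWD2 libraries. Fos, an early gene of dissociation, had 52.4 and 145 CPM in the NWD2 libraries, 44.8, 203 and 62.9 CPM in those on NWD1 and 38.9 and 89.98 CPM in those on AIN76A, highest in NWD1 replicate 2 and NWD2 replicate 2, the libraries with the most Btg2. The whole list of 12 dissociation genes did not follow Btg2 in NWD2. Its mean log2 CPM, less the mean over the 7 libraries, was 0.21 and -0.33 in NWD2, -0.29, 0.61 and 0.15 in NWD1 and -0.44 and 0.10 in AIN76A, so it was second lowest in NWD2 replicate 2, where Btg2 was highest.

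**Figure D3:**
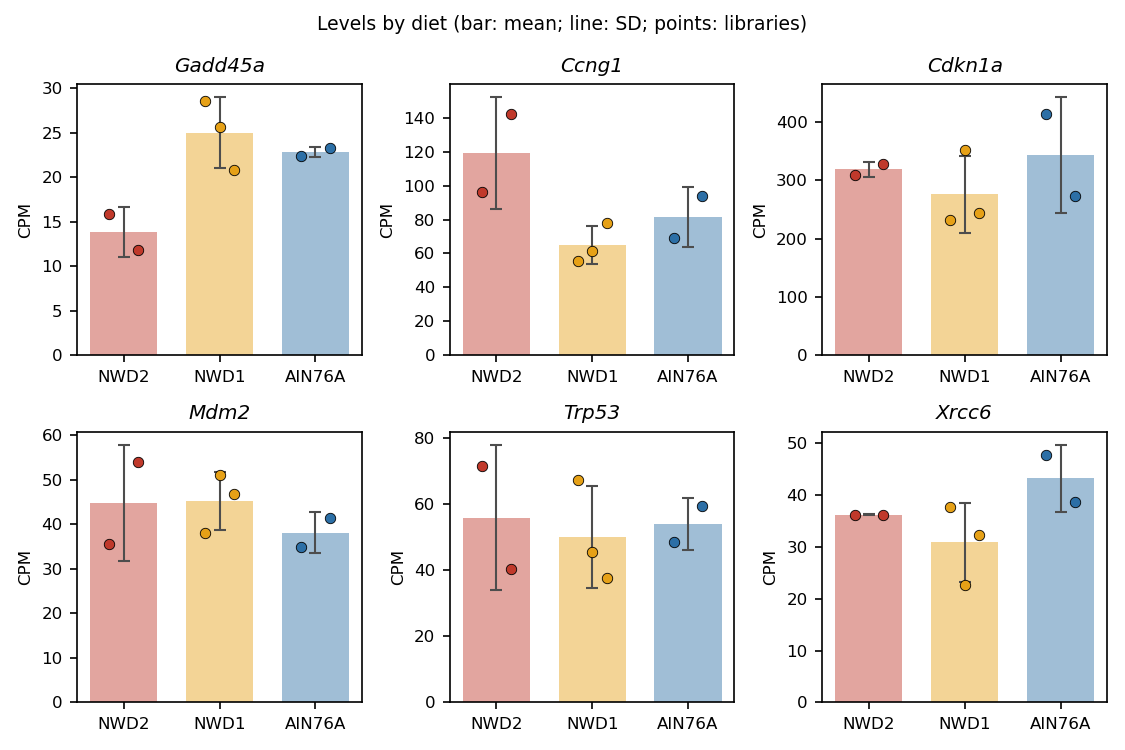
CPM of 6 genes by diet, with bars for the mean, lines for the SD (n = 2 for NWD2, 3 for NWD1 and 2 for AIN76A) and points for libraries. Gadd45a points of NWD2 (15.9 and 11.8) lie below, and Ccng1 points of NWD2 (95.97 and 142) above, those of both other diets, while Cdkn1a, Mdm2 and Trp53 overlap.

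The targets that promote cell death had log2 fold changes of both signs. Bax, which opens the outer mitochondrial membrane, had 36.2 and 26.2 CPM in the NWD2 libraries, 40.2, 28.7 and 22.9 CPM in those on NWD1 and 49.04 and 28.5 CPM in those on AIN76A. The highest value was in AIN76A replicate 1, and AIN76A replicate 2 lay near the lowest NWD2 value. Bbc3, which encodes Puma, ranged from 2.39 to 5.24 CPM with both extremes in NWD1, and its log2 fold changes lay between -0.06 and 0.08. Pmaip1, which encodes Noxa, had 34.7 and 59.5 CPM in the NWD2 libraries, 29.5, 37.7 and 39.5 CPM in those on NWD1 and 27.7 and 33.8 CPM in those on AIN76A. NWD2 replicate 2 was far above the rest, and NWD2 lay above AIN76A without overlap. The Pmaip1 log2 fold change was 0.62 (SE 0.33, edgeR adjusted p = 0.996) with NWD2 against AIN76A, and 0.18 without NWD2 replicate 2. Trp53inp1, a promoter of p53-dependent death and autophagy, had 8.01 and 21.03 CPM in the NWD2 libraries, 8.36, 19.8 and 12.2 CPM in those on NWD1 and 9.87 and 13.98 CPM in those on AIN76A, with both NWD2 libraries at the ends of the range.

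The remaining death-related targets were low or variable. Aen, a nuclease of apoptosis, had 12.7 and 6.19 CPM in the NWD2 libraries, 7.99, 7.35 and 6.04 CPM in those on NWD1 and 9.81 and 9.21 CPM in those on AIN76A. Each NWD1 library was below both AIN76A libraries (-0.41, SE 0.36, edgeR adjusted p = 0.881), and NWD2 held both the highest value and the second lowest. Eda2r, a death receptor of the tumour necrosis factor family, had 0.976 and 1.61 CPM in the NWD2 libraries, 0.662, 0.878 and 0.664 CPM in those on NWD1 and 0.828 and 2.13 CPM in those on AIN76A. Its log2 fold change with NWD1 against AIN76A was -0.99 (SE 0.54, adjusted p = 0.878), which rested on AIN76A replicate 2. Without that library it was -0.16. Phlda3, an inhibitor of Akt signalling, was near the lower limit of the measurement, with 0.893 and 0.0483 CPM in the NWD2 libraries, 0.455, 0.417 and 0.398 CPM in those on NWD1 and 0.198 and 0.556 CPM in those on AIN76A. NWD2 replicate 2 had 3 counts of it, and its SE was close to 1 on the log2 scale in each comparison.

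Targets of metabolism and nucleotide supply also overlapped between diets in most comparisons. Sesn1 and Sesn2 encode sestrins, which restrain the growth kinase complex mTORC1. Sesn1 had 107 and 153 CPM in the NWD2 libraries, 139.6, 137 and 126 CPM in those on NWD1 and 119 and 200.4 CPM in those on AIN76A, with AIN76A replicate 2 highest and NWD2 replicate 1 lowest. Sesn2 varied least among the p53 targets within diets (0.16 on the log2 CPM scale) and had 16.5 and 13.6 CPM in the NWD2 libraries, 13.3, 10.7 and 12.4 CPM in those on NWD1 and 12.4 and 13.6 CPM in those on AIN76A. Both NWD2 values of Sesn2 exceeded all NWD1 values, with a log2 fold change of 0.31 (SE 0.27, edgeR adjusted p = 0.776). Rrm2b, the p53-induced subunit of ribonucleotide reductase, had 2.19 and 3.68 CPM in the NWD2 libraries, 1.74, 5.68 and 2.86 CPM in those on NWD1 and 2.16 and 2.297 CPM in those on AIN76A, and NWD1 replicate 2 stood above the rest.

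Of the kinases that signal damage, Atm, Atr and Chek1 had low levels, at 0.821, 0.853 and 1.23 TPM, and Chek2 a higher one, at 15.6 TPM. Atr and Chek1 varied most between libraries of one diet, by 0.72 and 0.82 on the log2 CPM scale, against 0.39 for Atm and 0.35 for Chek2. Atm, which responds to double-strand breaks, had 4.58 and 6.097 CPM in the NWD2 libraries, 4.12, 2.36 and 4.65 CPM in those on NWD1 and 4.41 and 4.38 CPM in those on AIN76A. Atr, which responds to stalled replication forks, had 4.26 and 4.94 CPM in the NWD2 libraries, 3.23, 2.33 and 3.98 CPM in those on NWD1 and 2.05 and 7.59 CPM in those on AIN76A. The AIN76A libraries of Atr were the extremes of all 7, and its log2 fold change was 0.54 (SE 0.52, edgeR adjusted p = 0.792) with NWD2 against NWD1, where the diets did not overlap. Chek1, the kinase downstream of Atr and most used in S phase, had 5.11 and 1.59 CPM in the NWD2 libraries, 3.52, 2.12 and 1.39 CPM in those on NWD1 and 1.84 and 3.56 CPM in those on AIN76A. The NWD2 libraries differed more from each other in Chek1 than the 2 AIN76A libraries did. Chek2, downstream of Atm, had 18.97 and 12.2 CPM in the NWD2 libraries, 17.4, 17.1 and 10.9 CPM in those on NWD1 and 16.8 and 17.5 CPM in those on AIN76A. All 4 kinases had positive log2 fold changes with NWD2 against NWD1, from 0.04 to 0.54, and negative ones with NWD1 against AIN76A, from -0.61 to -0.18. These comparisons share the NWD1 libraries. The signs rested on single libraries for 3 of the kinases. Atm kept both signs, but its value with NWD1 against AIN76A was -0.26 with all libraries and -0.0051 without NWD1 replicate 2. For Atr, the value with NWD1 against AIN76A was 0.62 without AIN76A replicate 2 and -1.27 without AIN76A replicate 1. For Chek2, without NWD1 replicate 3 the values were -0.14 with NWD2 against NWD1 and 0.0086 with NWD1 against AIN76A, and without NWD2 replicate 1 the first was -0.35. For Chek1, the value with NWD1 against AIN76A was 0.06 without NWD1 replicate 3, and that with NWD2 against NWD1 was 1.11 without NWD2 replicate 2 and -0.61 without NWD2 replicate 1.

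Genes of recombination and cross-link repair were low. Brca1 had 3.201 and 2.82 CPM in the NWD2 libraries, 3.25, 3.99 and 3.12 CPM in those on NWD1 and 2.68 and 3.82 CPM in those on AIN76A. It varied little, with a range of 2.68 to 3.99 CPM over all libraries. Brca2, which acts in repair by recombination, had 2.21 and 0.772 CPM in the NWD2 libraries, 4.22, 2.48 and 2.39 CPM in those on NWD1 and 1.01 and 3.41 CPM in those on AIN76A. NWD2 lay below NWD1 without overlap, with a log2 fold change of -1.02 (SE 0.64, edgeR adjusted p = 0.737), the only member past 1 in size in any comparison, beside 12.5% of all genes in that comparison. Without NWD2 replicate 2 it was -0.45. Fancd2, the monoubiquitinated hub of the Fanconi anaemia pathway, ranged from 1.80 to 3.77 CPM, with intervals of -1.20 to 0.71 with NWD2 against AIN76A, -0.69 to 1.06 with NWD2 against NWD1 and -1.30 to 0.44 with NWD1 against AIN76A.

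End joining genes included the most abundant repair gene. Xrcc6, which encodes the Ku70 subunit that caps broken ends, had 36.2 and 36.1 CPM in the NWD2 libraries, 37.6, 22.6 and 32.3 CPM in those on NWD1 and 47.8 and 38.6 CPM in those on AIN76A. NWD2 and NWD1 both lay below AIN76A without overlap, with log2 fold changes of -0.25 (SE 0.31, edgeR adjusted p = 0.996) with NWD2 and -0.49 (SE 0.28, adjusted p = 0.878) with NWD1, both against the same AIN76A libraries. Without AIN76A replicate 1 the value with NWD2 was -0.092 and that with NWD1 -0.33. Its exons overlap those of Desi1 on the other strand, which reached 60.0 CPM. Xrcc5, the Ku80 partner, lay between 6.33 and 9.44 CPM. Prkdc, the kinase that Ku recruits, had 7.01 and 10.3 CPM in the NWD2 libraries, 6.31, 8.68 and 8.30 CPM in those on NWD1 and 5.24 and 8.899 CPM in those on AIN76A. Trp53bp1, which favours end joining over recombination, had 4.89 and 6.84 CPM in the NWD2 libraries, 2.96, 2.62 and 7.24 CPM in those on NWD1 and 3.15 and 4.72 CPM in those on AIN76A. NWD1 replicate 3 had the most Trp53bp1, and without it the log2 fold change with NWD2 against NWD1 was 1.07, in place of 0.48. Trp53bp1 shares 2130 exon bases with Tubgcp4 on the other strand, a gene with 9.16 to 22.8 CPM that was also highest in NWD1 replicate 3, so the 2 genes are uncertain.

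The remaining repair genes cover mismatch, strand break and nucleotide excision repair. Msh6, a subunit of the mismatch sensor, had 23.96 and 12.8 CPM in the NWD2 libraries, 16.4, 13.2 and 23.6 CPM in those on NWD1 and 10.4 and 21.3 CPM in those on AIN76A, and the AIN76A libraries spanned most of the range. Parp1, which marks strand breaks with poly-ADP-ribose, had 25.3 and 17.9 CPM in the NWD2 libraries, 24.2, 25.5 and 27.5 CPM in those on NWD1 and 22.3 and 34.1 CPM in those on AIN76A. NWD2 replicate 2 was lowest and AIN76A replicate 2 highest. Ercc1, a partner of the nuclease that cuts beside bulky lesions, ranged from 5.597 to 11.7 CPM, and Xpc, the lesion sensor and itself reported as a p53 target, from 8.71 to 15.5 CPM. Diets overlapped in each comparison for these 4 genes.

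Set beside each other, p53 targets and repair genes had medians near 0 in each comparison. With NWD2 against AIN76A the median log2 fold change was 0.21 for the 15 p53 targets (9 higher, 6 lower) and -0.11 for the 11 repair genes (5 higher, 6 lower), beside -0.03 for all genes tested. With NWD2 against NWD1 it was 0.15 for p53 targets (10 higher, 5 lower) and 0.13 for repair genes (7 higher, 4 lower), beside 0.05. With NWD1 against AIN76A it was 0.08 for p53 targets (8 higher, 7 lower) and -0.12 for repair genes (5 higher, 6 lower), beside 0.01. The sign of the p53 target median depended on 1 library in each comparison. Without NWD2 replicate 2 it was -0.095 against AIN76A and -0.026 against NWD1, and without NWD1 replicate 2, the female library, it was -0.18 with NWD1 against AIN76A and 0.37 with NWD2 against NWD1. Without AIN76A replicate 2 the p53 target median was 0.37 with NWD2 against AIN76A, and the repair medians were 0.13 with NWD2 and 0.20 with NWD1 against AIN76A.

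By library, the list level was the mean over genes of log2 CPM less the mean of all 7 libraries. For p53 targets it was -0.01 and 0.10 in NWD2, -0.14, 0.16 and -0.15 in NWD1 and -0.10 and 0.14 in AIN76A. For repair genes it was 0.09 and -0.10 in NWD2, -0.05, -0.15 and 0.17 in NWD1 and -0.18 and 0.24 in AIN76A. The difference between the lists was largest in NWD1 replicates 2 and 3, at 0.32 and -0.32, so within 1 diet, and it was -0.10 and 0.20 in NWD2, and 0.09 and -0.09 in AIN76A. Of the 15 p53 targets, 5 were highest in NWD2 replicate 2 (Mdm2, Ccng1, Btg2, Pmaip1 and Trp53inp1) and 2 were lowest there (Gadd45a and Phlda3). The sum of 8 enterocyte markers was highest in that library too, with 36850 and 76960 CPM in the NWD2 libraries, 41280, 52970 and 34370 CPM in those on NWD1 and 34190 and 40460 CPM in those on AIN76A. Markers of cell cycling were lowest in that library, with a list level of -0.57 over 18 genes, against 0.28 in NWD2 replicate 1, 0.19, 0.08 and -0.36 in NWD1 and -0.06 and 0.43 in AIN76A. Mki67, the proliferation marker, had 25.9 and 12.3 CPM in the NWD2 libraries, 28.2, 34.1 and 26.9 CPM in those on NWD1 and 28.5 and 34.1 CPM in those on AIN76A. The part of cycling cells or enterocytes in the p53 target and repair levels was not tested.

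**Figure D4:**
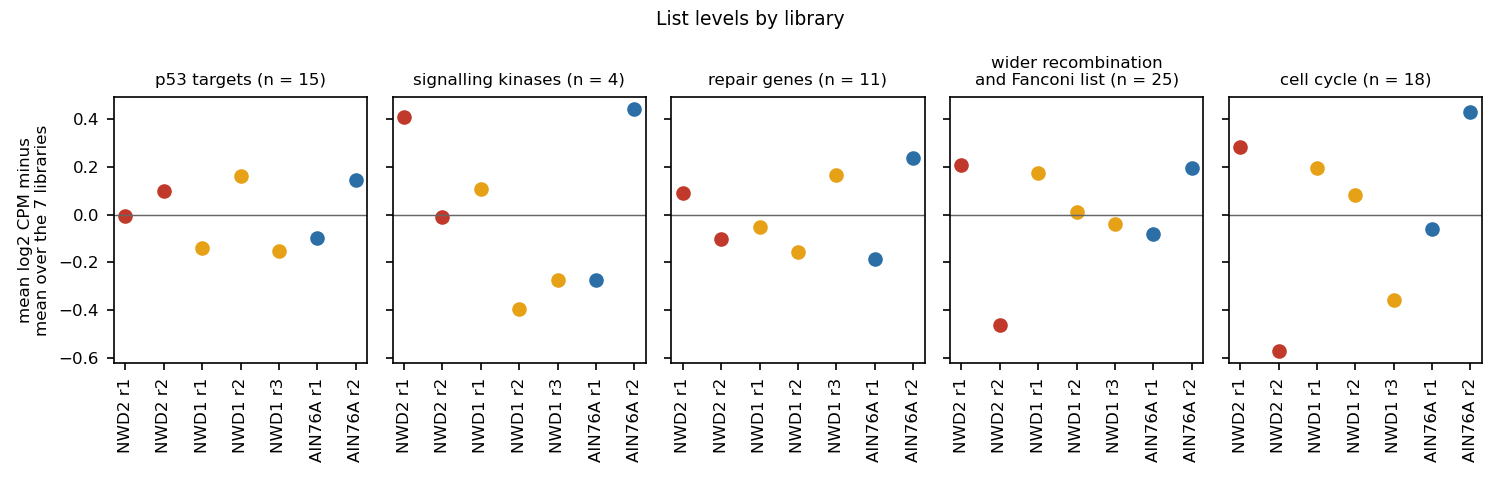
List level by library (mean log2 CPM less the mean over 7 libraries) for p53 targets, signalling kinases, repair genes, the wider recombination and Fanconi list and cell cycle markers, with points coloured red for NWD2, yellow for NWD1 and blue for AIN76A. The p53 targets stay between -0.15 and 0.16, and NWD2 replicate 2 is lowest in the last 2 panels, at -0.46 and -0.57.

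The other genes of these pathways were taken from 8 lists of 114 genes. All were found, 6 of them by a newer symbol, and 109 were tested. Of the rest, the p53 relatives Trp63 and Trp73, the tumour suppressor Cdkn2a, Dram1 and Ptprv did not pass the filter on low counts. The edgeR test called 0 of the 109 in each comparison, with 0, 5 and 4 at an unadjusted p under 0.05 for NWD2 against AIN76A, NWD2 against NWD1 and NWD1 against AIN76A. These are 0%, 4.59% and 3.67%, beside 3.83%, 7.89% and 3.42% of all genes tested. Their medians were -0.02, 0.02 and -0.01. DESeq2 called 1 of the genes named from these lists, Tob1 with NWD2 against NWD1 (DESeq2 adjusted p = 0.0219), which edgeR also called without the filter on low counts (edgeR adjusted p = 0.00221). In that comparison DESeq2 called 180 of 14626 genes and edgeR without the filter 384 of 24477. Tob1 was named for the smallest p of its list there.

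Of the wider p53 targets, 23 were tested, with medians of -0.09, -0.04 and 0.03 in the same order. Tob1, an antiproliferative relative of Btg2, had 71.7 and 40.5 CPM in the NWD2 libraries, 152, 221 and 139 CPM in those on NWD1 and 54.9 and 122 CPM in those on AIN76A. Both NWD2 values were below all NWD1 values and overlapped AIN76A, with a log2 fold change of -1.60 (SE 0.42, edgeR adjusted p = 0.496) with NWD2 against NWD1. Plk3, a stress-responsive kinase, had 0.687 and 0.209 CPM in the NWD2 libraries, 1.12, 1.77 and 1.39 CPM in those on NWD1 and 0.504 and 0.508 CPM in those on AIN76A, and was higher in each NWD1 library than in any other, with a log2 fold change of 1.495 (SE 0.61, adjusted p = 0.878) with NWD1 against AIN76A. Perp, a desmosome protein and p53 target, was the most abundant, with 246 and 119 CPM in the NWD2 libraries, 280.4, 313 and 241 CPM in those on NWD1 and 131 and 258 CPM in those on AIN76A. Sulf2, an extracellular sulfatase, had a log2 fold change of 0.76 (SE 0.42, adjusted p = 0.996) with NWD2 against AIN76A. Among p53 regulators, Hipk2, a kinase of p53, lay between 54.9 and 80.2 CPM, Mdm4, which blocks p53, between 4.27 and 14.3 CPM, highest in NWD2 replicate 2, and Wrap53 between 12.5 and 19.1 CPM.

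The wider checkpoint, recombination and p53 target lists each had their lowest level in NWD2 replicate 2, like the cell cycle markers. Base excision was about equally low in NWD2 replicate 2 (-0.30) and NWD1 replicate 3 (-0.29). In NWD2 replicate 2 end joining had its highest level (0.27), and p53 regulators (0.08) and nucleotide excision (0.01) lay above 0. Mismatch repair was lowest in NWD1 replicate 2 (-0.43). For the 23 wider p53 targets the list level was 0.08 and -0.35 in NWD2, 0.22, 0.06 and 0.11 in NWD1 and -0.16 and 0.04 in AIN76A. The 15 p53 targets above had a list level of 0.10 in NWD2 replicate 2. The 25 recombination and Fanconi genes had a list level of 0.21 and -0.46 in NWD2, 0.17, 0.01 and -0.04 in NWD1 and -0.08 and 0.20 in AIN76A, and medians of -0.16, -0.13 and -0.02 in the order of comparisons above. Fance, of the Fanconi core complex, had 2.803 and 0.869 CPM in the NWD2 libraries, 5.86, 3.35 and 3.79 CPM in those on NWD1 and 1.87 and 2.297 CPM in those on AIN76A. Fancm, an anchor of that complex, had 1.92 and 0.724 CPM in the NWD2 libraries, 2.05, 2.65 and 3.45 CPM in those on NWD1 and 1.06 and 1.28 CPM in those on AIN76A. Both genes were higher in each NWD1 library than in any other. Fancf, of the same complex, had a log2 fold change of -1.39 (SE 0.70, edgeR adjusted p = 0.996) with NWD2 against AIN76A. In the checkpoint list, H2afx, the histone variant phosphorylated at breaks, had 31.9 and 5.33 CPM in the NWD2 libraries, 52.7, 41.2 and 28.9 CPM in those on NWD1 and 20.0 and 41.6 CPM in those on AIN76A, a wide gap between the NWD2 libraries. Cdc25a, the phosphatase that Chek1 restrains, lay between 54.9 and 97.8 CPM, and Wee1, the kinase opposed to it, between 4.98 and 13.9 CPM.

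The excision, mismatch and end joining lists had medians between -0.24 and 0.44. The highest of these medians, 0.44 with NWD2 against NWD1, came from the 6 end joining genes, among them Lig4, the ligase of that pathway, with 15.3 and 30.1 CPM in the NWD2 libraries, 15.2, 17.1 and 15.4 CPM in those on NWD1 and 17.1 and 17.9 CPM in those on AIN76A. Nhej1 had -0.67 (SE 0.37) with NWD1 against AIN76A and Mad2l2 0.43 (SE 0.35) with NWD2 against AIN76A. Of nucleotide excision, the lesion sensor subunit Ddb1 was by far the most abundant, with 284 and 693 CPM in the NWD2 libraries, 204, 291 and 353 CPM in those on NWD1 and 274 and 379.5 CPM in those on AIN76A, and Xpa, which verifies lesions, had 2.28 and 1.16 CPM in the NWD2 libraries, 5.11, 4.76 and 2.59 CPM in those on NWD1 and 1.89 and 2.47 CPM in those on AIN76A. In Xpa, NWD1 replicates 1 and 2 stood above all other libraries, and the log2 fold change was -1.28 (SE 0.47, edgeR adjusted p = 0.548) with NWD2 against NWD1. Log2 fold changes of the other genes named by the rule were 0.25 for Msh3 with NWD2 against AIN76A, 0.45 for Exo1 with NWD2 against NWD1 and -0.46 for Pms2 with NWD1 against AIN76A. In base excision repair, Parp2 lay between 25.03 and 47.8 CPM, and the values were -1.33 for the adenine glycosylase gene Mutyh with NWD2 against NWD1, 0.52 for Lig3 with NWD2 against AIN76A and -0.62 for Fen1 with NWD1 against AIN76A.

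**Figure D5:**
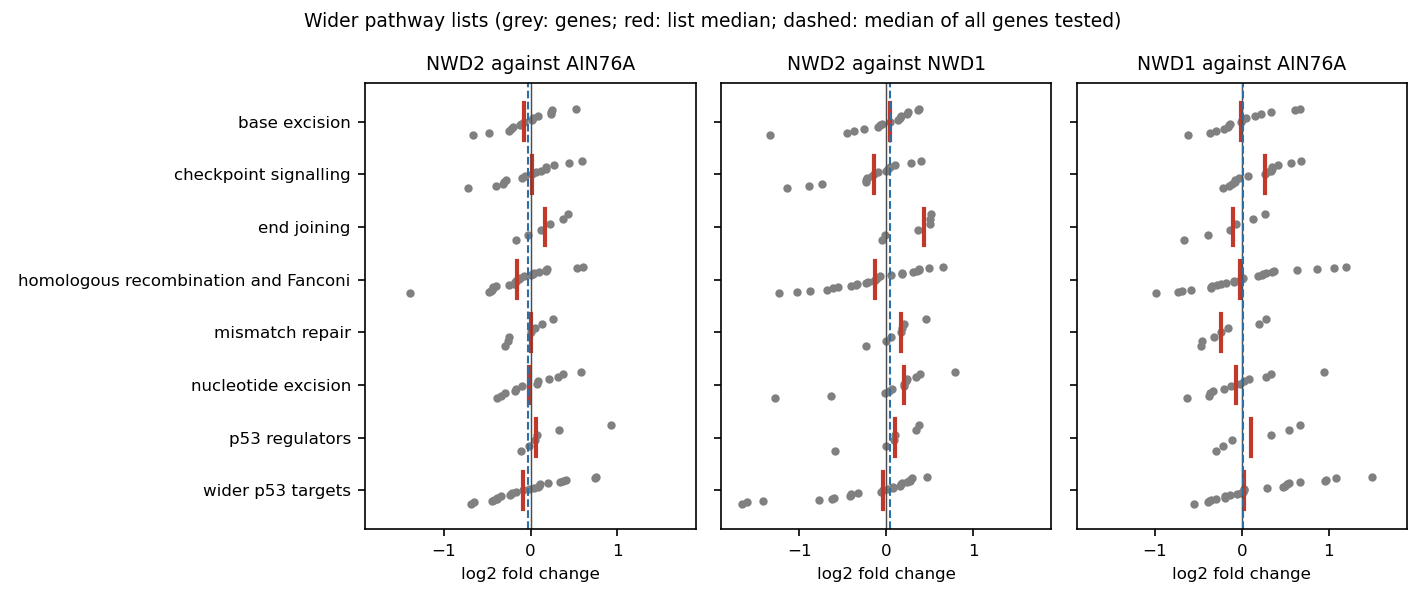
Log2 fold changes of 109 further genes of these pathways by list (grey points), with the list median (red) and the median of all genes tested (dashed), in the 3 comparisons. List medians lie between -0.24 and 0.44, and no gene passed the edgeR test.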

How the data were processed

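RNA of 7 libraries was amplified with SMART-Seq v4 and made into paired-end Nextera XT libraries, per the labels' protocols, a preparation without strand information. For each Ensembl gene the authors deposited a whole-number count. The deposited TPM are the authors' values, with gene lengths not given in the sources used here. Per the submitters' processing notes the tools were STAR 2.4.2a, HTSeq 0.6.1 and edgeR and the build mm9, without roles or order. Only 1 TPM column, headed NWD2 replicate 3, matches no sample and was not used, so TPM cover 6 samples, without NWD1 replicate 3.

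Counts were tested in R 4.3.3 by quasi-likelihood with edgeR 4.0.16 (TMM scaling, filterByExpr, robust), with all 7 samples in one fit, diet as the only term, 4 residual degrees of freedom and a biological coefficient of variation of 0.363. Adjusted p-values run over all 14626 genes tested, and genes under 0.05 were called. SEs come from the log2 fold change and its F statistic, and intervals are at 95%. List levels use log2 CPM with a prior count of 2. Exact permutation tests of single genes were not run, since their smallest p is 0.333 for 2 against 2 samples and 0.1 for 3 against 2. Counting error adds to the spread of the lowest genes. The members, lists and tests were chosen with earlier results of these data known. All 31 members are named. From each wider list, the gene of highest level and that of smallest p per comparison are named, except 2 that are not reported here, and Epcam, Ptprc, Mki67 and Fos give context. Genes overlapping a member were named after their values were seen. Exon overlaps come from GENCODE M21 and promoters from RefSeq on GRCm38.p6, another build than mm9, so coordinates of the count table are not given. Overlaps with exons of another gene were found for 12 of the 31 members. Alternatives were other scalings, filters and tools (DESeq2 1.42.0, limma 3.58.1 with voom or on log2(TPM + 1) and log2(TPM + 0.1), where fold changes are on that scale), terms for replicate number, sex or i5 index, fits to a pair of diets alone, a threshold of 0.1 and each library left out. The scripts were tested on simulated data.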

Additional observations from a re-analysis of the deposited data

How the results depend on the processing

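No member was called by any alternative. The count of all genes called, 0 in each comparison, was 190, 384 and 85 for NWD2 against AIN76A, NWD2 against NWD1 and NWD1 against AIN76A without a filter on low counts, where 24477 genes were tested, and 52, 180 and 1 with DESeq2. It was 1 with the replicate block and 6 with only the 2 diets compared for NWD2 against AIN76A, 1 and 2 with the i5 index as a term for NWD2 against AIN76A and NWD2 against NWD1, 1 and 1 on log2(TPM + 1) for NWD2 against NWD1 and NWD1 against AIN76A, and 2 on log2(TPM + 0.1) for NWD1 against AIN76A. With libraries left out in turn it stayed at 0, except 1 for NWD2 against NWD1 without NWD2 replicate 2. Such fits borrow the spread of the other diets for a diet reduced to 1 library.

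The median of p53 targets with NWD2 against AIN76A was -0.042 with limma voom, -0.029 with the replicate block, 0.045 on log2(TPM + 1) and -0.051 on log2(TPM + 0.1). With NWD2 against NWD1 it was -0.035 with library size alone, -0.082 on log2(TPM + 1), -0.19 on log2(TPM + 0.1) and 0.37 with sex as a term. With NWD1 against AIN76A it was 0.31 on log2(TPM + 0.1) and -0.18 with sex as a term, which in effect leaves out the only female library. The median of repair genes was -0.12 with library size alone for NWD2 against NWD1, and -0.32 with the i5 index as a term for NWD2 against AIN76A. Library size alone moved the median of all genes tested to -0.15, -0.19 and 0.11 in the order above, against -0.03, 0.05 and 0.01. The cause of the other shifts was not tested. With libraries left out in turn, the p53 target medians ranged from -0.095 to 0.37 with NWD2 against AIN76A, from -0.026 to 0.37 with NWD2 against NWD1 and from -0.18 to 0.13 with NWD1 against AIN76A, and the repair medians from -0.30 to 0.13, from -0.02 to 0.21 and from -0.21 to 0.20. Ccng1 and Gadd45a kept the sign of each log2 fold change under all 20 alternatives, of which the threshold of 0.1 cannot change a sign. They were picked for their small p-values and the alternatives reuse the same libraries, so the stable signs are no further evidence. The replicate numbers are not said to pair samples, and same-numbered libraries deviated together with r across genes from 0.00 to 0.26, so the replicate block is an alternative only.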
